A study of Mus musculus with 9 samples.

Results

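The glutathione S-transferase genes described here are 10 of the 54532 genes in the expression table: Gstt1, Gstt2 and Gstt3 of the theta class, Gstm1 and Gstm2 of the mu class, Gsta3 and Gsta4 of the alpha class, Gstp1 of the pi class, Gsto1 of the omega class and the membrane-bound Mgst1. All 10 were found by symbol, and all 10 passed the filter of a mean of at least 0.5 FPKM (fragments per kilobase of exon, scaled per library) over the 9 libraries. The set was selected on measured values: it was built around Gstt2, chosen by its difference between the groups as 1 of the 4 genes of 15610 tested (0.0256%) that passed an adjusted p under 0.05 between the libraries labelled SAHH-het and SAHH-WT. That comparison therefore describes Gstt2 and is no test of it. The betaine comparisons reuse its libraries, SAHH-het in 1 of them and SAHH-WT in the other.

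The 9 libraries hold vascular RNA of C57BL/6 mice at an age of 24 weeks, 3 libraries per group, and by the labels every mouse was ApoE-/-, a background prone to atherosclerosis. The SAHH-het+betaine mice were SAHH+/- and received betaine, the SAHH-het mice were SAHH+/- without it, and the SAHH-WT mice had wild-type SAHH. SAHH, encoded by Ahcy, is the hydrolase that removes S-adenosylhomocysteine, and betaine is a methyl donor for the conversion of homocysteine to methionine. The sources used here give neither the dose and duration of betaine nor whether each library is a separate animal, so p-values measure only the spread between libraries.

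Glutathione S-transferases join the tripeptide glutathione to reactive electrophiles such as lipid peroxidation products, epoxides and halogenated compounds, and several also reduce organic hydroperoxides. The conjugates are exported by ABC transporters and broken down by peptidases. Many of these genes are targets of the transcription factor Nrf2, which binds the antioxidant response element, and some carry dioxin response elements read by the aryl hydrocarbon receptor. In the vessel wall the enzymes are known as a defence against aldehydes and peroxides formed from oxidised lipids.

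The theta genes lie side by side on mouse chromosome 10, all on the minus strand of GRCm38: Gstt3 from 75774115 to 75781414, Gstt1 from 75783813 to 75798584 and Gstt2 from 75831114 to 75837424. RefSeq start-site windows of GRCm38.p6, from 250 bases before to 50 bases after the start, were matched by symbol for 8 of the 10 genes, among them Gstt1 and Gstt3. The windows of these theta genes are shown because they neighbour Gstt2 and were, like it, below every SAHH-het library in the betaine libraries, though neither passed the test, and those of Gsta3 and Mgst1 because each holds a match to the antioxidant response element core TGACNNNGC, given in capitals. Strands are as transcribed, 5′ to 3′.
Gstt1, chr10:75797682-75797981, minus strand: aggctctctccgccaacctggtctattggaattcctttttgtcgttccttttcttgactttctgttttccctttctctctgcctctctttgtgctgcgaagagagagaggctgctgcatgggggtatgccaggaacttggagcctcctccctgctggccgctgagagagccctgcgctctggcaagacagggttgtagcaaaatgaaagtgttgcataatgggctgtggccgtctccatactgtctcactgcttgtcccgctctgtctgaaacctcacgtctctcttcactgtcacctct
Gstt3, chr10:75781373-75781672, minus strand: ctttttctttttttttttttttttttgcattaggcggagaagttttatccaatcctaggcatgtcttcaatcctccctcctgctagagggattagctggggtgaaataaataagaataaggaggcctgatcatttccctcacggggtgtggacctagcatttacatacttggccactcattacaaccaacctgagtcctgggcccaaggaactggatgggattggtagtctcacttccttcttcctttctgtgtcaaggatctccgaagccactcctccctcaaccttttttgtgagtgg
Gsta3, chr1:21240335-21240634, plus strand: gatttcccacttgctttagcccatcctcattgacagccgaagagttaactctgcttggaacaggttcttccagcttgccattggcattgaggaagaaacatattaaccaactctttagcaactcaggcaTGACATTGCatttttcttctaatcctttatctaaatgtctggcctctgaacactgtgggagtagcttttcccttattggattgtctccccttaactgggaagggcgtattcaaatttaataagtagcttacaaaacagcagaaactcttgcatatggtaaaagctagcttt
Mgst1, chr6:138140277-138140576, plus strand: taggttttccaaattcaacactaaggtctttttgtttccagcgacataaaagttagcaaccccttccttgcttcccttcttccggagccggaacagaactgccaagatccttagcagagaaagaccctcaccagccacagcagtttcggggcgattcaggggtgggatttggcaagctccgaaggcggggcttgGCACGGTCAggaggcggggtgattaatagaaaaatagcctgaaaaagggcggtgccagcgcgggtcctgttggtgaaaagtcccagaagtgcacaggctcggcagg
The cores TGACNNNGC and GCGTG (dioxin response element) were searched on both strands. TGACNNNGC occurs in 12.4% and GCGTG in 32.6% of 32544 mouse windows of this length. Among the 8 genes, TGACNNNGC was matched in Gsta3 and in 1 of 2 windows of Mgst1, starting 121 and 56 bases before the start site. GCGTG was matched in Gstm1 and Gstp1, and neither core in Gstt1, Gstt3, Gstm2 or Gsto1. These are letter matches in 300 bases and say nothing of binding.

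Some facts of the libraries touch every result. The recovered depth was 15837599 to 17381974 fragments per library. Ahcy read 7.66 to 9.70 FPKM in libraries labelled SAHH-het+betaine, 3.48 to 4.75 FPKM in those labelled SAHH-het and 7.17 to 11.5 FPKM in those labelled SAHH-WT, so the betaine libraries did not show the lower level of the SAHH-het libraries. Apoe read 149 to 225 FPKM in libraries labelled SAHH-het, against 5.51 to 8.88 FPKM in SAHH-het+betaine and 2.91 to 6.11 FPKM in SAHH-WT, which goes against a label of ApoE-/- shared by all. Smooth muscle and endothelial genes were present (Acta2 at 37.8 to 163 FPKM and Cdh5 at 32.1 to 171 FPKM), with much fat (Ucp1 at 18.04 to 5768 FPKM). The library SAHH-WT 1 stood apart: its 6 adrenal cortex markers summed to 9773 FPKM, against at most 5.52 FPKM in the other 8 libraries, where Cyp11b1 and Cyp21a1 were at 0. The 6 hepatocyte markers summed to 0.199 to 1.54 FPKM in all 9 libraries, so liver, the organ richest in these enzymes, left almost no signal. In such bulk samples, fewer cells of a type and less RNA per cell cannot be told apart.

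By level per exon length, averaged over the 9 libraries, the order was Mgst1 (285 FPKM), Gstm1 (159 FPKM), Gstp1 (104 FPKM), Gsta4 (45.8 FPKM), Gsto1 (37.8 FPKM), Gstm2 (36.9 FPKM), Gstt1 (15.8 FPKM), Gstt2 (11.2 FPKM), Gsta3 (3.57 FPKM) and Gstt3 (1.97 FPKM). The vascular samples thus carried mostly the microsomal, mu and pi enzymes, and the theta genes were among the lowest. The neighbours Gsto1 and Gstm2 were in this order in 6 of 9 libraries, Gstt1 and Gstt2 in 7 and Gsta3 and Gstt3 in 7, so these pairs overlapped within their spread. Mgst1 and Gstm1, Gsta4 and Gsto1, and Gstt2 and Gsta3 kept their order in 8 of 9 libraries, and the other 3 neighbouring pairs kept it in 9 of 9.

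**Figure D1:**
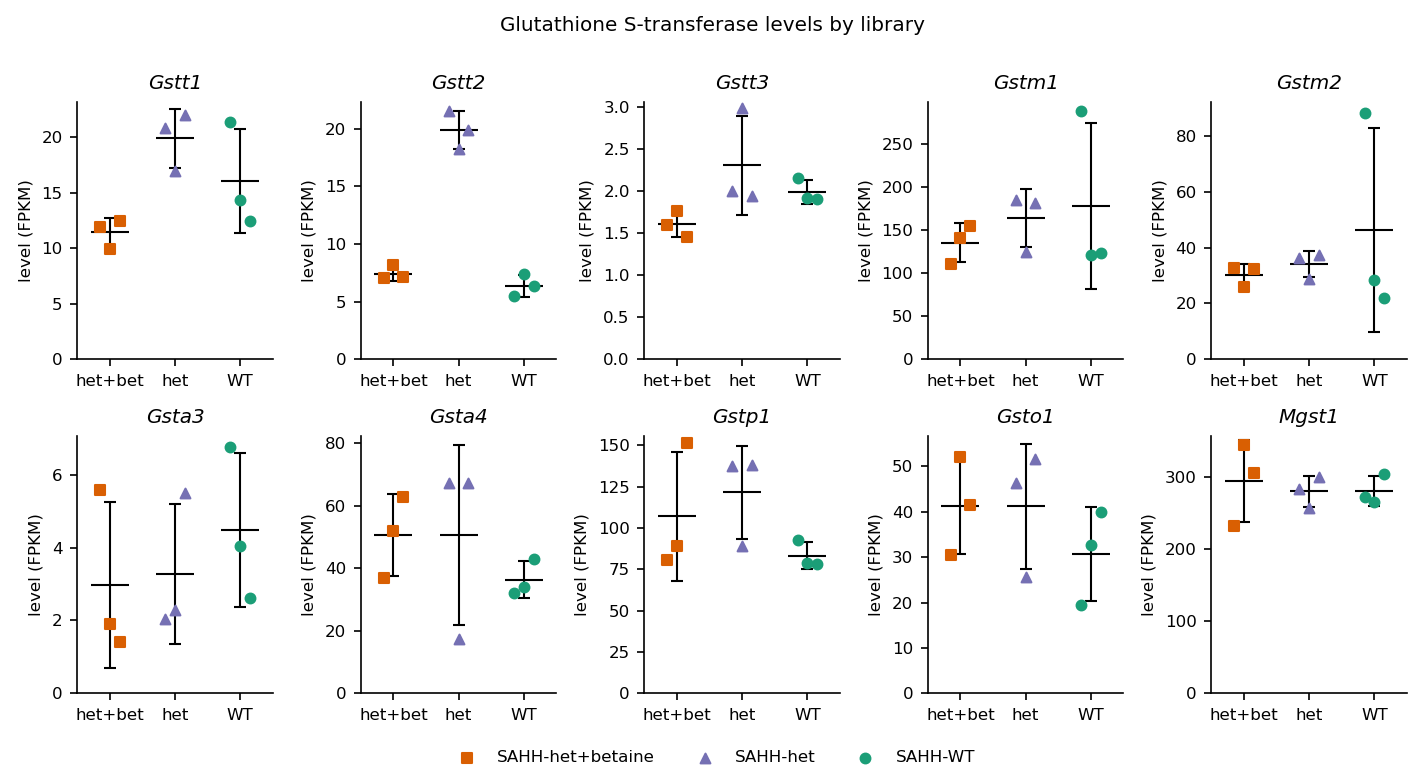
Level in FPKM (vertical axis, from 0) of each of the 10 genes in the 3 libraries of SAHH-het+betaine, SAHH-het and SAHH-WT, each point a library, with bars for the mean and SD of the 3. The SAHH-het libraries have Gstt2 at 18.2 to 21.5 FPKM, above the other 6 at 5.45 to 8.13 FPKM, and SAHH-WT 1 is the highest point for Gstm1 and Gstm2.

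Gstt2 is a theta-class enzyme that in human and rat acts on sulfate esters such as menaphthyl sulfate and on organic hydroperoxides. It read 7.05, 8.13 and 7.11 FPKM in libraries labelled SAHH-het+betaine, 21.5, 18.2 and 19.9 FPKM in those labelled SAHH-het, and 5.45, 7.38 and 6.31 FPKM in those labelled SAHH-WT. Every SAHH-het library was above every other library, the lowest of them by 2.24-fold over the highest of the other 6, while the betaine and wild-type groups overlapped. These values rest on 387 to 495 recovered fragments in the betaine libraries, 1233 to 1351 in the SAHH-het libraries and 416 to 550 in the SAHH-WT libraries.

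The mean level of Gstt2 was 19.9 ± 1.67 FPKM in libraries labelled SAHH-het and 6.38 ± 0.964 FPKM in those labelled SAHH-WT (SD, n = 3 each), a ratio of 3.11. On the log2(FPKM + 0.5) scale of the limma fit, which understates changes of low genes, the difference was 1.57 (SE 0.16, 95% interval 1.21 to 1.93). The size of this difference stayed between 1.31 and 1.67 in 21 alternative settings. Some of them change only the filter, the block, the estimate of spread or libraries outside the 2 groups. Those cannot move a log2 difference, here or for the genes below. Whether Gstt2 passed did not hold as well: it passed in 8 of the 21, and in 0 of the 9 that left out 1 library. Nor did it pass when the replicate number entered as a block for SAHH-het and SAHH-WT alone, a setting added after seeing the data in which 5 genes passed. Leaving out any 1 of SAHH-het+betaine 1, 2 and 3, SAHH-het 1, 2 and 3 or SAHH-WT 1, 2 and 3 was enough to lose it.

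In the betaine comparison Gstt2 averaged 7.43 ± 0.611 FPKM in libraries labelled SAHH-het+betaine and 19.9 ± 1.67 FPKM in those labelled SAHH-het (SD, n = 3 each), a ratio of 0.374. The log2 difference was -1.36 (SE 0.16, 95% interval -1.72 to -0.998) and -1.48 to -1.28 in 20 alternatives. Since Gstt2 was taken up for being high in the same SAHH-het libraries, these values are a description. The SAHH-WT libraries were also part of that choice, and the shared fit takes its spread from all 9 libraries. Against SAHH-WT the betaine libraries differed by 0.21 on the log2 scale (SE 0.16, 95% interval -0.15 to 0.57), again a description. The value was -0.17 when FPKM were rescaled to TPM.

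Marker sums of fibroblasts, white adipocytes, B cells and hepatocytes separated SAHH-het from 1 or both of the other groups. The 6 fibroblast markers summed to 163 to 198 FPKM in libraries labelled SAHH-het+betaine, 66.4 to 95.8 FPKM in those labelled SAHH-het and 121 to 207 FPKM in those labelled SAHH-WT, lowest where Gstt2 was highest. The 6 white adipocyte markers summed to 2786 to 4049 FPKM in the betaine libraries, 3293 to 3933 FPKM in the SAHH-het libraries and 705 to 3231 FPKM in the SAHH-WT libraries, so they separated SAHH-het from SAHH-WT but not from the betaine libraries. The 6 B cell markers summed to 24.05 to 165 FPKM in the betaine libraries, 11.2 to 20.7 FPKM in the SAHH-het libraries and 4.93 to 323 FPKM in the SAHH-WT libraries, so they separated SAHH-het from the betaine libraries but not from SAHH-WT. The hepatocyte markers were near 0 in every group, at sums of 0.354 to 1.34 FPKM in the betaine libraries, 0.199 to 0.844 FPKM in the SAHH-het libraries and 0.871 to 1.54 FPKM in the SAHH-WT libraries. They too separated SAHH-het from SAHH-WT but not from the betaine libraries. Apoe and Ahcy, given above, also separated the SAHH-het libraries from both other groups. Apoe read 149 to 225 FPKM in SAHH-het, and at most 8.88 FPKM in SAHH-het+betaine and 6.11 FPKM in SAHH-WT, against the shared ApoE-/- label. The part of the cell type markers, of Apoe and of Ahcy in the Gstt2 values was not tested.

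Gstt1 conjugates small halogenated compounds such as dichloromethane and was the highest theta gene by mean level. It read 11.9, 9.96 and 12.5 FPKM in libraries labelled SAHH-het+betaine, 20.8, 17.0 and 22.1 FPKM in those labelled SAHH-het, and 21.4, 14.4 and 12.4 FPKM in those labelled SAHH-WT. The betaine libraries lay below all SAHH-het libraries, and the SAHH-WT libraries spread over both, with SAHH-WT 1 at the SAHH-het level. The log2 difference of SAHH-het+betaine from SAHH-het was -0.77 (SE 0.22, 95% interval -1.28 to -0.27) and -0.88 to -0.68 in the 20 alternatives, but it did not pass over all genes (limma, Benjamini-Hochberg adjusted p = 0.553, and 0.329 at the lowest in any alternative). The unadjusted p was 0.0076 by limma, and 8.03% of all genes had one under 0.05 in this comparison.

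Against SAHH-WT, Gstt1 in the betaine libraries differed by -0.44 on the log2 scale (SE 0.22, limma adjusted p = 0.619), and by -0.22 without SAHH-WT 1. Between SAHH-het and SAHH-WT the Gstt1 difference was 0.33 (SE 0.22), and 0.55 without SAHH-WT 1, the library with adrenal cortex markers. Gstt1 thus differed less than Gstt2 between SAHH-het and SAHH-WT, in overlapping groups, and a test of the difference between the genes was not made.

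Gstt3, a low theta gene whose substrates are less well known, read 1.60, 1.76 and 1.45 FPKM in libraries labelled SAHH-het+betaine, 1.996, 2.99 and 1.94 FPKM in those labelled SAHH-het, and 2.16, 1.92 and 1.90 FPKM in those labelled SAHH-WT. The betaine libraries were the lowest 3 of the 9, though by little and on only 73 to 205 recovered fragments per library. The log2 difference was -0.40 from SAHH-het (SE 0.19, limma adjusted p = 0.645) and -0.25 from SAHH-WT (SE 0.19, limma adjusted p = 0.701). Neither passed. The difference from SAHH-het rested in part on SAHH-het 2, without which it was -0.23.

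The balance within the theta class is given as a description, since Gstt2, whose value chose the set, is part of it. The ratio of Gstt2 to Gstt1, in FPKM, was 0.593, 0.817 and 0.569 in libraries labelled SAHH-het+betaine, 1.03, 1.07 and 0.901 in those labelled SAHH-het, and 0.255, 0.513 and 0.508 in those labelled SAHH-WT. The 3 groups did not overlap in this ratio, with the betaine libraries between the other groups. The gap between the betaine and SAHH-WT libraries was narrow, 0.569 against 0.513, and SAHH-WT 1 was the lowest library at 0.255. Gstt2 made up 33.8 to 40.98% of the summed theta level in the betaine libraries, 45.3 to 48.5% in the SAHH-het libraries and 18.8 to 31.2% in the SAHH-WT libraries. The ratio and the shares contain the value that chose Gstt2 and are given without a test. How often ratios of other genes separate the 3 groups was not counted, so nothing is read from the separation.

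Gstm1, the main mu-class enzyme of many tissues, lies on the minus strand of chromosome 3 from 108012255 to 108017973, close to Gstm2 from 107981702 to 107986453. Gstm1 read 110.4, 141 and 155 FPKM in libraries labelled SAHH-het+betaine, 185, 125 and 181 FPKM in those labelled SAHH-het, and 289, 120.4 and 124 FPKM in those labelled SAHH-WT. Gstm2 read 32.7, 25.9 and 32.4 FPKM in the betaine libraries, 36.2, 28.7 and 37.3 FPKM in the SAHH-het libraries, and 88.4, 28.3 and 22.01 FPKM in the SAHH-WT libraries. For both genes the highest library of all was SAHH-WT 1, and the groups overlapped.

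The mu-class values against SAHH-WT turned on that library. Gstm1 differed by -0.01 between SAHH-het and SAHH-WT on the log2 scale (SE 0.37) and by 0.40 without SAHH-WT 1. Gstm2 differed by -0.17 (SE 0.45) and by 0.43 without it. Between SAHH-het+betaine and SAHH-WT the log2 difference of Gstm1 was -0.28 (SE 0.37, limma adjusted p = 0.820) and of Gstm2 -0.33 (SE 0.45, limma adjusted p = 0.825), which became 0.14 and 0.27 without SAHH-WT 1. Against SAHH-het, SAHH-WT 1 enters only through the spread of the shared fit. There Gstm1 in the betaine libraries differed by -0.27 (SE 0.37, limma adjusted p = 0.886) and Gstm2 by -0.16 (SE 0.45, limma adjusted p = 0.949). Without SAHH-WT 1 the differences were the same and the limma adjusted p-values were 0.690 and 0.765.

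**Figure D2:**
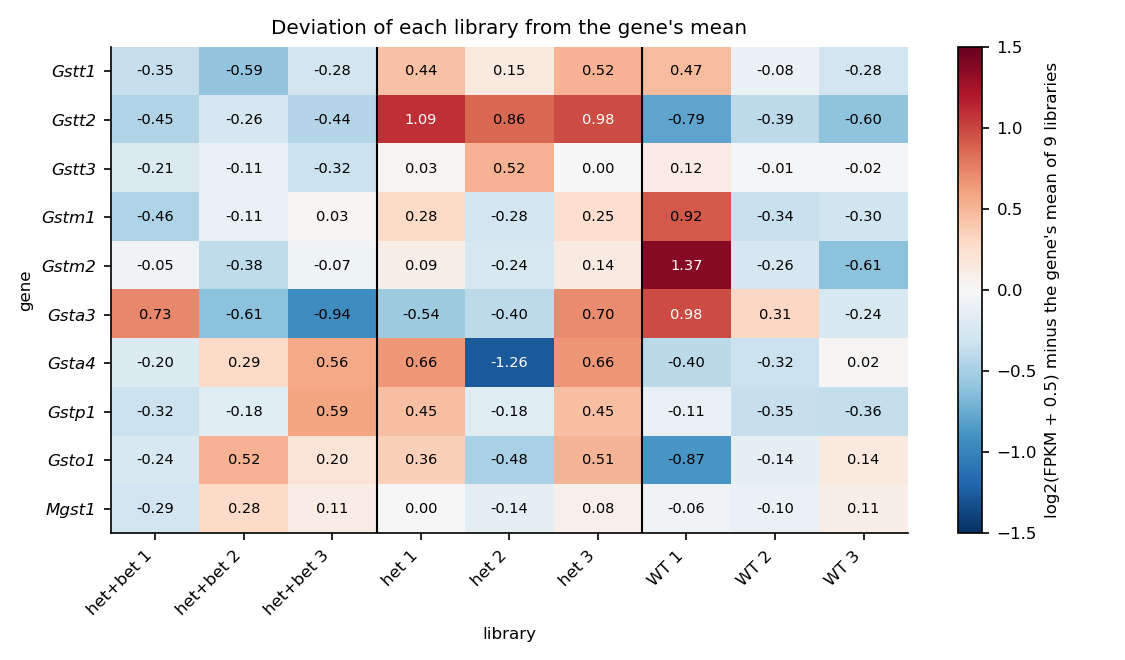
Deviation of log2(FPKM + 0.5) in each library (columns, grouped as SAHH-het+betaine, SAHH-het and SAHH-WT) from the mean of the 9 libraries for each gene (rows), with red above and blue below the mean and the value printed in each cell. Gstt2 is red in the 3 SAHH-het libraries (0.86 to 1.09), Gstm1 and Gstm2 are highest in SAHH-WT 1 (0.92 and 1.37), and Gsta4 is lowest in SAHH-het 2 (-1.26).

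The alpha-class genes had the largest SE of the 10 genes in the shared fit, 0.52 for Gsta3 and 0.49 for Gsta4. Within 1 group, Gstm2 in SAHH-WT spread at least as widely, from 22.01 to 88.4 FPKM. Gsta4 (chromosome 9, 78182774 to 78209349), which conjugates the lipid aldehyde hydroxynonenal, read 36.8, 52.0 and 63.0 FPKM in libraries labelled SAHH-het+betaine, 67.2, 17.5 and 67.2 FPKM in those labelled SAHH-het, and 32.1, 33.9 and 43.1 FPKM in those labelled SAHH-WT. Gsta3 (chromosome 1, 21240589 to 21265661), which in the mouse detoxifies aflatoxin epoxide, read 5.58, 1.91 and 1.42 FPKM in the betaine libraries, 2.03, 2.29 and 5.49 FPKM in the SAHH-het libraries, and 6.76, 4.05 and 2.61 FPKM in the SAHH-WT libraries. SAHH-het 2 had the lowest Gsta4 of all libraries and the other SAHH-het libraries the highest, so the group spans the whole range, and no pair of groups separated for either gene.

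The log2 difference of Gsta4 between SAHH-het and SAHH-WT was 0.25 (SE 0.49), and 0.89 without SAHH-het 2. Between SAHH-het+betaine and SAHH-het it was 0.20 (SE 0.49, limma adjusted p = 0.941), and -0.44 without SAHH-het 2. Gsta3 differed by -0.43 (SE 0.52) between SAHH-het and SAHH-WT, and by -0.82 without SAHH-het 3 and -0.11 without SAHH-WT 1. It differed by -0.20 (SE 0.52, limma adjusted p = 0.948) between SAHH-het+betaine and SAHH-het and by -0.62 (SE 0.52, limma adjusted p = 0.716) between SAHH-het+betaine and SAHH-WT, the last of which was -1.12 without SAHH-het+betaine 1 and -0.29 without SAHH-het+betaine 3. No direction for the alpha class stood beyond the spread of the libraries.

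Gstp1 (chromosome 19, 4035407 to 4037985) encodes the pi-class enzyme, which also binds and restrains the stress kinase JNK. It read 80.4, 88.9 and 152 FPKM in libraries labelled SAHH-het+betaine, 138, 88.9 and 138 FPKM in those labelled SAHH-het, and 92.8, 78.9 and 78.1 FPKM in those labelled SAHH-WT. SAHH-het 1, SAHH-het 3 and SAHH-het+betaine 3 were high and the other 6 libraries lay close together. The log2 difference of SAHH-het from SAHH-WT was 0.52 (SE 0.29), that of SAHH-het+betaine from SAHH-het -0.21 (SE 0.29, limma adjusted p = 0.884) and that of SAHH-het+betaine from SAHH-WT 0.31 (SE 0.29, limma adjusted p = 0.745). Without SAHH-het+betaine 3 the last of these was 0.027. Of its 50-base exon stretches 33.7% are also in Gstp2, so reads can be split between the 2 genes and these levels are uncertain.

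Gsto1 (chromosome 19, 47854970 to 47864790), an omega-class enzyme that reduces dehydroascorbate and removes glutathione from proteins, read 30.6, 52.0 and 41.5 FPKM in libraries labelled SAHH-het+betaine, 46.3, 25.7 and 51.7 FPKM in those labelled SAHH-het, and 19.5, 32.6 and 39.9 FPKM in those labelled SAHH-WT. Mgst1 (chromosome 6, 138140316 to 138156755), the microsomal and mitochondrial membrane enzyme that also reduces lipid hydroperoxides, read 232, 344 and 305 FPKM in the betaine libraries, 283, 257 and 300 FPKM in the SAHH-het libraries, and 272, 265 and 304 FPKM in the SAHH-WT libraries. Both overlapped between all groups. Mgst1, the highest gene, was the steadiest over the 9 libraries, with an SD of 0.17 on the log2 scale. Its log2 differences were 0.00 (SE 0.23) between SAHH-het and SAHH-WT, 0.05 (95% interval -0.48 to 0.59, limma adjusted p = 0.967) between SAHH-het+betaine and SAHH-het and 0.05 (95% interval -0.48 to 0.59, limma adjusted p = 0.955) between SAHH-het+betaine and SAHH-WT. Quantile normalization moved the first of these to -0.57.

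For Gsto1 the log2 difference of SAHH-het from SAHH-WT was 0.42 (SE 0.36), and 0.13 without SAHH-WT 1. That of SAHH-het+betaine from SAHH-het was 0.03 (SE 0.36, limma adjusted p = 0.988), and that of SAHH-het+betaine from SAHH-WT 0.45 (SE 0.36, limma adjusted p = 0.699). Summed over the 10 genes, the level was 549 to 771 FPKM in the betaine libraries, 583 to 824 FPKM in the SAHH-het libraries and 587 to 829 FPKM in the SAHH-WT libraries, with full overlap. Gstt2 is so small a part of that sum that its differences do not show in it.

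**Figure D3:**
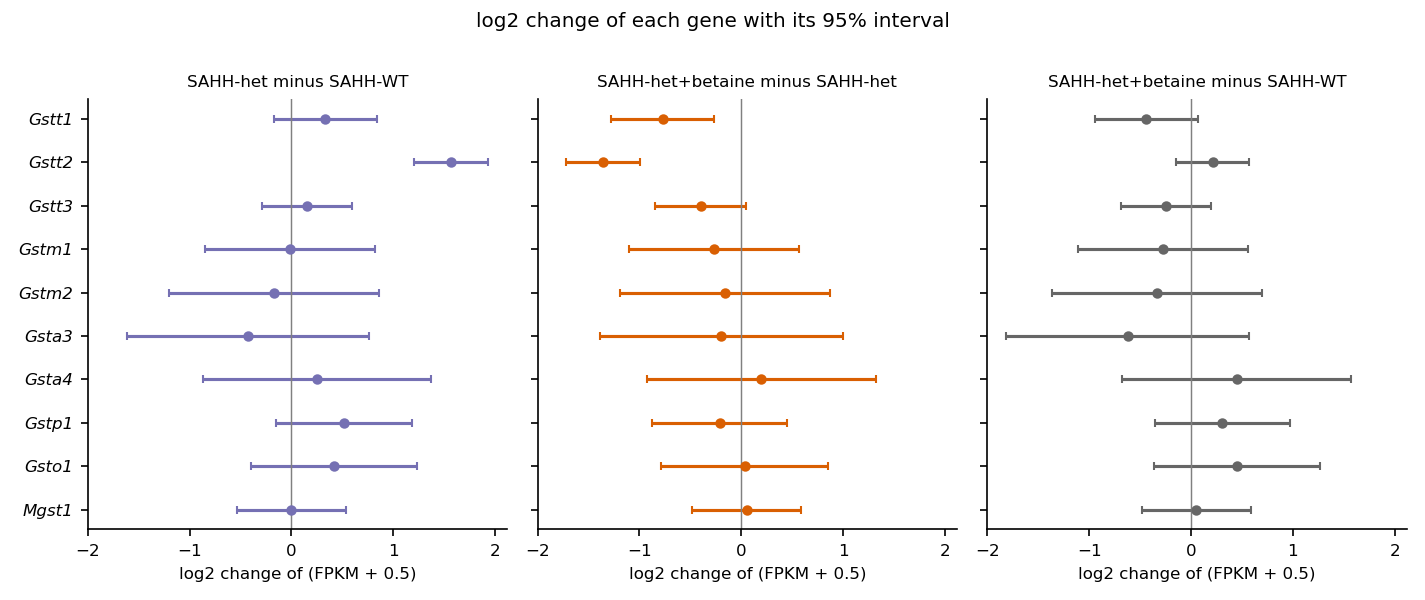
log2 change of (FPKM + 0.5) on the horizontal axis for each gene in 3 panels, SAHH-het against SAHH-WT, SAHH-het+betaine against SAHH-het, and SAHH-het+betaine against SAHH-WT. Points are limma estimates from 3 libraries per group and bars 95% intervals without adjustment. Gstt2 lies at 1.57 and -1.36 in the first 2 panels, Gstt1 at -0.77 in the second, and the intervals of the other genes contain 0 in every panel.

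Over the set, 1 gene was higher and 0 were lower without overlap between SAHH-het and SAHH-WT, where 8.33% of all genes were higher and 8.28% lower in this way. That gene was Gstt2, which chose the set, so nothing is read from the count. In the betaine libraries 3 of 10 were lower than SAHH-het without overlap, all of them theta genes, and 0 were higher, where 8.16% of all genes were lower and 8.21% higher. Leaving out Gstt2, that is 2 of 9. Between SAHH-het+betaine and SAHH-WT 1 gene, Gstt3, was lower without overlap and 0 were higher, where 7.64% of all genes were lower and 9.29% higher.

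Of the 9 genes other than Gstt2, 0 passed in either betaine comparison by limma, where 3 of all genes (0.0192%) passed against SAHH-het and 0 (0.0%) against SAHH-WT. At an unadjusted p under 0.05, Gstt1 was the 1 gene of the 9 counted against SAHH-het, where 8.03% of all genes were, and 0 of the 9 were counted against SAHH-WT, where 8.01% of all genes were. Without Gstt2, whose value chose the set, the median log2 difference of the other 9 genes was 0.15 between SAHH-het and SAHH-WT, with 0.01 over all genes tested. It was -0.20 between SAHH-het+betaine and SAHH-het, with -0.01 over all genes, and -0.25 between SAHH-het+betaine and SAHH-WT, with -0.02 over all genes. With Gstt2 the medians were 0.20, -0.20 and -0.10. The 2 betaine comparisons share the betaine libraries. The first shares its SAHH-het libraries, and the second its SAHH-WT libraries, with the comparison that chose Gstt2.

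How the genes varied together was described by Pearson's r of log2(FPKM + 0.5) over the 9 libraries. Gstm1 and Gstm2 had the highest r of the 45 pairs, 0.88, which was 0.61 without SAHH-WT 1. Gsta4 and Gsto1 followed with 0.79, and 0.90 without that library. Gstt1 and Gstt2 had 0.56, and 0.88 without it, while Gstt3 and Gsta4 ran opposite at -0.71. The libraries share tissue content and group within each pair, and with 9 points these are descriptions only.

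Among 11860 genes averaging 1 FPKM or more, those with a pattern most like Gstt2 over the 9 libraries were Apoc1 (r = 0.99), Apoe (0.98), Lypla2 (0.98), Map3k6 (0.97) and Kyat1 (0.97). Apoc1 and Apoe are neighbouring apolipoprotein genes on chromosome 7, Lypla2 an acyl-protein thioesterase and Map3k6 a MAP kinase kinase kinase on chromosome 4, and Kyat1 a kynurenine aminotransferase on chromosome 2. Apoe, Apoc1 and Map3k6 are the other 3 genes that passed between SAHH-het and SAHH-WT, so they were high in the same libraries by that choice. Among the 6 libraries outside SAHH-het, r with Gstt2 was 0.86 for Apoc1, 0.77 for Apoe, 0.83 for Lypla2, 0.49 for Map3k6 and 0.45 for Kyat1. These 6 libraries, SAHH-WT 1 among them, were also part of the 9 that ranked the genes. The values are thus not free of that choice, and nothing is read from them. Of the other transferases, Gstt1 ranked 1479th, Gstp1 1869th and Gstt3 2095th.

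Kyat1 read 5.53, 6.57 and 6.95 FPKM in libraries labelled SAHH-het+betaine, 13.1, 11.4 and 11.2 FPKM in those labelled SAHH-het, and 5.40, 5.28 and 5.91 FPKM in those labelled SAHH-WT. Lypla2 read 23.8, 25.7 and 25.6 FPKM in the betaine libraries, 34.8, 32.5 and 33.6 FPKM in the SAHH-het libraries, and 20.8, 23.2 and 23.9 FPKM in the SAHH-WT libraries. Both were highest in the 3 SAHH-het libraries, which follows from their choice for likeness to Gstt2, and nothing further is read from it.

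**Figure D4:**
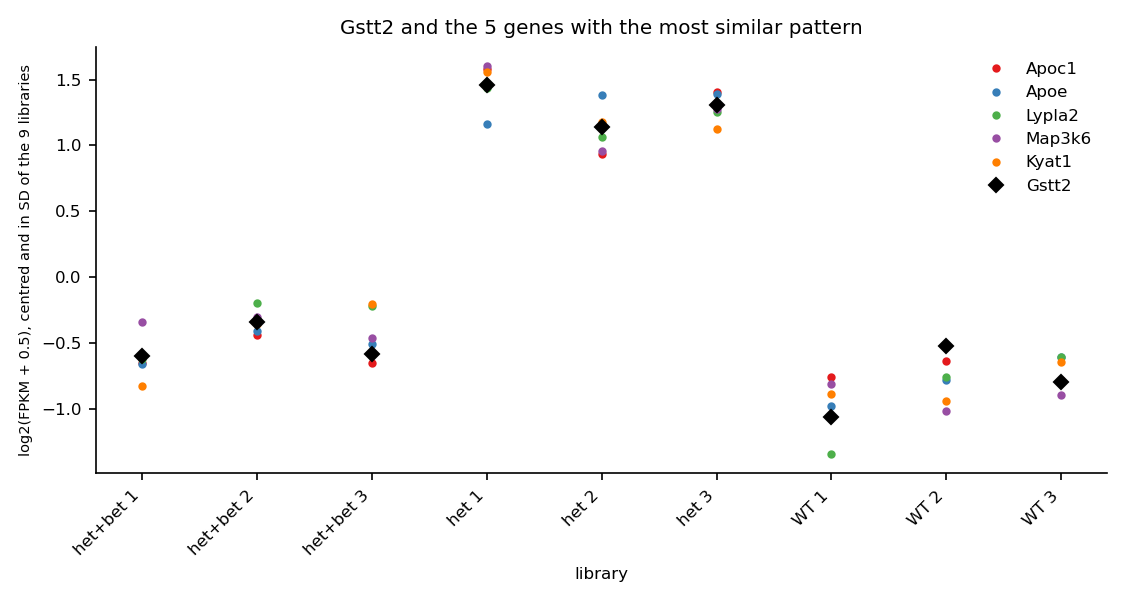
log2(FPKM + 0.5) of Gstt2 (black diamonds) and of Apoc1, Apoe, Lypla2, Map3k6 and Kyat1 in each library, centred on each gene's mean and divided by its SD over the 9 libraries (vertical axis). For all 6 genes the 3 SAHH-het libraries lie above the 6 libraries of SAHH-het+betaine and SAHH-WT.

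The genes around Gstt2 show whether its neighbourhood moved with it. Within 100 kb on chromosome 10 the annotation has 11 other protein-coding genes, of which 9 were tested. The next gene, Gstt4, lies 8.57 kb from Gstt2 and was too low to test, at 0 to 0.948 FPKM. Mif, the cytokine gene 21.9 kb to the other side, differed by 0.46 between SAHH-het and SAHH-WT (SE 0.28, limma adjusted p = 0.494) and by -0.47 between SAHH-het+betaine and SAHH-het (SE 0.28, limma adjusted p = 0.697), with overlapping groups.

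Ddt, which encodes a tautomerase related to Mif and lies 57.7 kb from Gstt2, read 19.1, 34.5 and 35.5 FPKM in libraries labelled SAHH-het+betaine, 52.1, 52.6 and 65.8 FPKM in those labelled SAHH-het, and 8.69, 17.2 and 41.1 FPKM in those labelled SAHH-WT. Between SAHH-het and SAHH-WT 8.33% of all genes were higher without overlap, and 8.16% were lower in the betaine libraries than in SAHH-het. Ddt, like Gstt2, was highest in the 3 SAHH-het libraries without overlap, but it spread widely in the other groups. Its log2 difference was 1.59 between SAHH-het and SAHH-WT (SE 0.50, limma adjusted p = 0.351), -0.97 between SAHH-het+betaine and SAHH-het (SE 0.50, limma adjusted p = 0.661) and 0.62 between SAHH-het+betaine and SAHH-WT (SE 0.50, limma adjusted p = 0.703), and it did not pass in any of them. Smarcb1, a chromatin remodelling subunit, and Cabin1, a calcineurin inhibitor, differed by 0.10 and 0.03 between SAHH-het and SAHH-WT. Chchd10, Derl3 and Mmp11, at the far side of Mif, differed by 1.13, -1.03 and -0.07, with limma adjusted p-values of 0.400, 0.459 and 0.945. Derl3 was lower in SAHH-het than in SAHH-WT without overlap, though barely (1.011 against 1.013 FPKM), as were 8.28% of all genes. Chchd10 and Mmp11 overlapped.

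**Figure D5:**
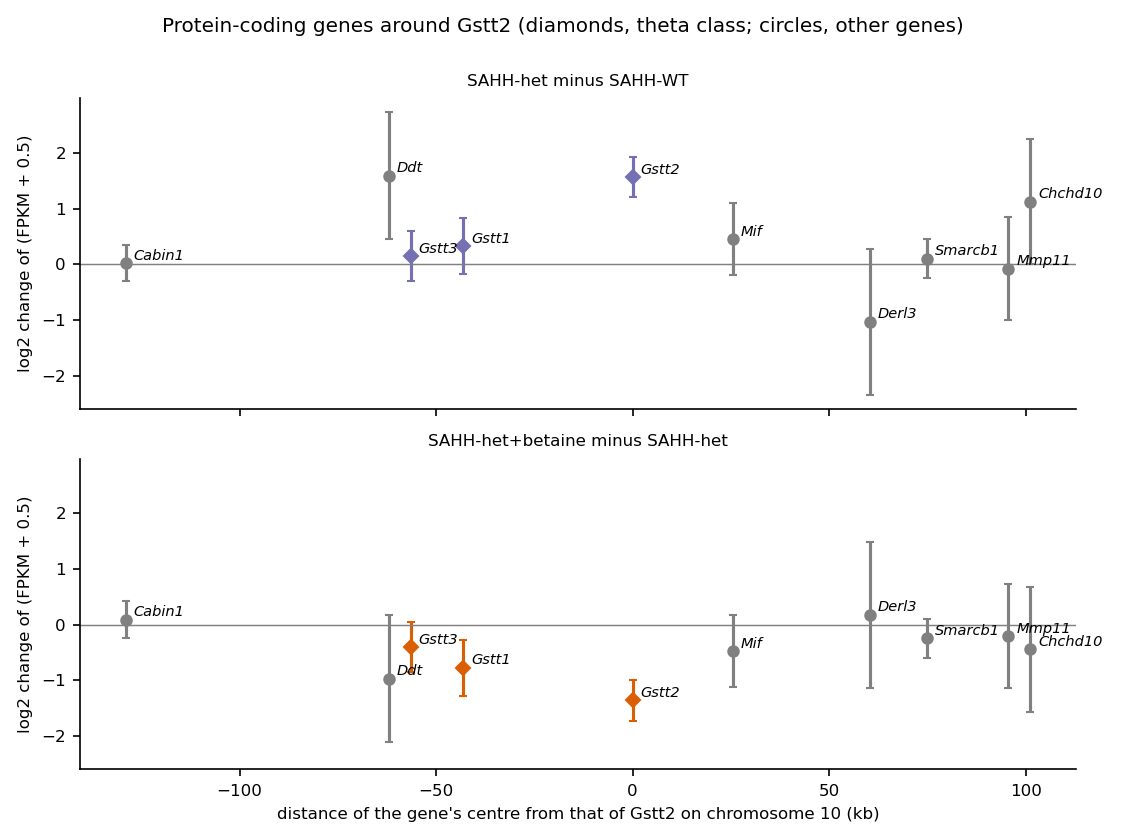
log2 change of (FPKM + 0.5) with its 95% interval (vertical axis) for Gstt2 and the 9 tested protein-coding genes around it, by the distance of each gene's centre from that of Gstt2 in kb (horizontal axis), for SAHH-het against SAHH-WT (top) and SAHH-het+betaine against SAHH-het (bottom). Theta genes are diamonds and other genes circles. Gstt2 and Ddt have the highest points in the top panel, at 1.57 and 1.59, with Gstt1 and Gstt3 between them near 0.33 and 0.15.

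The wider glutathione pathway was followed through 6 lists of 64 genes, of which 63 were in the table and 54 were tested. By limma 0 of the 54 passed in any of the 3 comparisons, with lowest adjusted p-values of 0.301, 0.559 and 0.618. Between SAHH-het and SAHH-WT 3 of them (5.56%) were higher and 5 (9.26%) lower without overlap, where 8.33% of all genes were higher and 8.28% lower. The betaine libraries had 5 (9.26%) higher and 3 (5.56%) lower than SAHH-het, where 8.21% of all genes were higher and 8.16% lower. Hpgds, Ggt6 and Abcc3 are among both the 5 lower and these 5 higher genes. They passed the filter only through groups where they were high, so these counts are partly fixed by it. Compared with SAHH-WT they had 7 (12.96%) higher and 2 (3.70%) lower, where 9.29% of all genes were higher and 7.64% lower. At an unadjusted p under 0.05 the counts were 6 of 54 between SAHH-het and SAHH-WT, 2 between SAHH-het+betaine and SAHH-het and 3 between SAHH-het+betaine and SAHH-WT, where 12.5%, 8.03% and 8.01% of all genes were counted in the same 3 comparisons.

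Of the other glutathione S-transferases, 13 of 18 were tested. Hpgds, the sigma-class enzyme that makes prostaglandin D, read 0.912, 0.706 and 0.772 FPKM in libraries labelled SAHH-het+betaine, 0.405, 0.514 and 0.490 FPKM in those labelled SAHH-het, and 0.992, 0.972 and 1.01 FPKM in those labelled SAHH-WT. Its mean in SAHH-het, 0.470 FPKM, was under the filter of 0.5 FPKM, which it passed only through the other groups. Part of its lower level in SAHH-het is thus fixed by that filter. The log2 difference was -0.62 between SAHH-het and SAHH-WT (SE 0.21, limma adjusted p = 0.358) and 0.42 between SAHH-het+betaine and SAHH-het (SE 0.21, limma adjusted p = 0.655). Mgst3, Gstz1, the enzyme of tyrosine breakdown, and Gsto2 differed by 0.77, 0.30 and 0.62 between SAHH-het and SAHH-WT, with overlapping groups and limma adjusted p-values of 0.536, 0.731 and 0.563.

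For glutathione synthesis and recycling (9 of 10 tested) the named genes were Slc3a2, a subunit of the cystine transporter, and the glutaredoxins Glrx3 and Glrx5. Glrx5 differed by 0.62 between SAHH-het and SAHH-WT on the log2 scale (SE 0.29, limma adjusted p = 0.412), the other two by less, and the groups overlapped for all 3. Of the glutathione peroxidases (5 of 6 tested) Gpx4, which removes lipid hydroperoxides, differed by 1.05 (SE 0.50, limma adjusted p = 0.415) and the plasma enzyme Gpx3 by 0.67 (SE 0.75, limma adjusted p = 0.697). Gpx4 was lowest in SAHH-WT 1, at 227 FPKM.

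Among genes of glutathione breakdown (10 of 12 tested) Ggt6, a gamma-glutamyltransferase relative, and Anpep, an aminopeptidase, were low in the SAHH-het libraries. Ggt6, like Hpgds above and the exporter Abcc3, passed the filter of 0.5 FPKM only through groups where it was high, so part of the lower level of these genes in SAHH-het is fixed by that filter. Ggt6 read 0.488, 0.592 and 0.882 FPKM in SAHH-het+betaine, 0.159, 0.123 and 0.111 FPKM for SAHH-het and 0.998, 0.521 and 0.902 FPKM in SAHH-WT. Its log2 difference was -1.03 between SAHH-het and SAHH-WT (SE 0.28, limma adjusted p = 0.324) and 0.86 between SAHH-het+betaine and SAHH-het (SE 0.28, limma adjusted p = 0.559). Anpep differed by -0.86 (SE 0.33, limma adjusted p = 0.376) and 0.77 (SE 0.33, limma adjusted p = 0.616), without overlap in both. Oplah and Lap3 differed by 1.22 and 0.36 between SAHH-het and SAHH-WT, with limma adjusted p-values of 0.400 and 0.619.

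Of the conjugate exporters (5 of 6 tested), Abcc3 was also lowest in SAHH-het, at 0.613, 0.378 and 0.375 FPKM in SAHH-het+betaine, 0.190, 0.187 and 0.223 FPKM for SAHH-het and 0.732, 0.499 and 1.34 FPKM in SAHH-WT. Its log2 difference between SAHH-het and SAHH-WT was -0.91 (SE 0.30, limma adjusted p = 0.358), while Abcc5 differed by 0.37 with overlapping groups. Among Nrf2 and its targets outside glutathione metabolism (12 of 12 tested) Keap1, the sensor that holds Nrf2 in check, read 11.5, 12.8 and 12.7 FPKM in SAHH-het+betaine, 10.8, 13.4 and 14.7 FPKM for SAHH-het and 8.42, 7.86 and 8.47 FPKM in SAHH-WT.

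Keap1 was thus higher than SAHH-WT without overlap in libraries of both other labels, by 0.61 on the log2 scale in SAHH-het (SE 0.15, limma adjusted p = 0.301) and by 0.55 in SAHH-het+betaine (SE 0.15, limma adjusted p = 0.618), and it did not pass in either. Thioredoxin Txn1 differed by 0.40 between SAHH-het and SAHH-WT (SE 0.18, limma adjusted p = 0.403), and Txnrd1, which reduces it, by 0.36 between SAHH-het+betaine and SAHH-WT (SE 0.15, limma adjusted p = 0.618). The peroxiredoxin Prdx1 differed by -0.12 between SAHH-het and SAHH-WT, within the spread of its libraries. The fibroblast marker sums given above were lowest in SAHH-het, as were Hpgds, Ggt6, Anpep and Abcc3. Whether they go together within the groups was not computed, and the part of these markers was not tested.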

How the data were processed

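The authors deposited 1 table of FPKM per gene for the 9 libraries, with no pooling. Alignment was to mm10 by HISAT2 2.0.5, per the submitters' processing notes. For the counter, the annotation release, the use of strand and the FPKM formula, nothing is given in the sources used here. FPKM are not counts, so testing used limma 3.58.1 (trended eBayes, two-sided) in R 4.3.3 on log2(FPKM + 0.5), with the 3 group means in 1 fit with 6 residual degrees of freedom. Genes needed a mean of at least 0.5 FPKM, which kept 15610. A gene passed at a Benjamini-Hochberg adjusted p under 0.05 over all of them. The fit was tested on simulated data.

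Positions and exon lengths came from a GRCm38 annotation, which matched 54495 genes. From the steps of low FPKM values, 97.1 to 97.3% of values per library came out as whole fragments within 0.1. They gave the fragment totals and a limma-voom alternative. The divisor behind the FPKM followed median-of-ratios size factors (a library's typical ratio to the mean library), within -0.72 to 0.77%. It departed from the fragment totals by -18.9% in SAHH-het+betaine 3 to 34.4% in SAHH-WT 1, both relative to the median library. The alternative with median-of-ratios scaling thus nearly repeats the scaling already in the FPKM. The samples were grouped by genotype and treatment labels. Same-numbered SAHH-het and SAHH-WT libraries deviated together (r = 0.29, 0.23 and 0.18, all over 0.1) and the betaine libraries did not. Differently numbered libraries reached 0.39 (SAHH-het+betaine 3 with SAHH-het 1) and 0.31 (SAHH-het+betaine 1 with SAHH-WT 2). Between SAHH-het and SAHH-WT they reached 0.099 at most. Values of this size thus also occur without a shared number. No label explains the numbers, so that pairing comes from the data alone and is uncertain.

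The members, lists and tests were chosen with earlier results of these data known. Named genes were the 10 members, the 5 genes most like Gstt2, the protein-coding genes within 100 kb of it and, from each pathway list, the 2 highest genes and the 2 with the smallest p, of which 1 is not reported here. The alternatives changed the pseudocount (0.1 and 1), the filter, the scaling, the block, the libraries and the tool. Of the exon stretches of 50 bases, other genes held 18.9% for Gstm1, 12.5% for Gstt3, 5.65% for Gstm2, 0.636% for Gstt2, 0.273% for Gsta3 and 0 for Gstt1, Gsta4, Gsto1 and Mgst1.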

Additional observations from a re-analysis of the deposited data

How the results depend on the processing

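TPM rescaling moved the median log2 difference of all genes by -0.29 between SAHH-het and SAHH-WT, -0.076 between SAHH-het+betaine and SAHH-het and -0.37 between SAHH-het+betaine and SAHH-WT, so member values under it are read against those shifts. Of 360 tests of the 9 other members in the betaine comparisons under the alternatives, 0 had an adjusted p under 0.05 and the lowest was 0.329. Of 610 member values under alternatives, 582 kept their sign and 28 turned it, 12 of them between SAHH-het and SAHH-WT, 9 between SAHH-het+betaine and SAHH-het and 7 between SAHH-het+betaine and SAHH-WT. The pathway lists kept 0 genes passing in each setting run. Groups of 3 libraries and members as low as 73 fragments limit all of these values.

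The 4 genes that passed between SAHH-het and SAHH-WT became 7 with no filter, 2 with TPM rescaling, 1 with only these groups in the fit and 1 to 5 when 1 library was left out (1 without SAHH-het 3 or SAHH-WT 2, 2 in 5 of the 9 settings, 5 without SAHH-WT 1). The 3 genes between SAHH-het+betaine and SAHH-het became 1 to 4 when 1 library was left out (1 in 6 of the 9 settings, namely without any 1 of the betaine libraries, SAHH-het 1, SAHH-het 3 or SAHH-WT 3, and 4 without SAHH-WT 2). The 0 between SAHH-het+betaine and SAHH-WT became 3 with no filter and 0 to 2 when 1 library was left out (2 without SAHH-WT 1, 1 without SAHH-het 2). Blocking by replicate number over all 9 libraries, the counts were 1, 1 and 0, and with the block in the SAHH-het and SAHH-WT libraries alone, added after seeing the data, 5 genes passed between those groups. The cause of these shifts was not tested.

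Between SAHH-het and SAHH-WT signs turned for Gstt3 (-0.11 with TPM rescaling, -0.014 without SAHH-het 2), Gstm1 (0.40 without SAHH-WT 1, 0.17 without SAHH-het 2 and 0.0046 with voom), Gstm2 (0.43 without SAHH-WT 1), Gsta4 (-0.060 with TPM rescaling, -0.044 with quantile normalization and -0.067 and -0.068 without SAHH-het 1 and 3) and Mgst1 (0.0585 at most). Without a turn of sign, quantile normalization moved Mgst1 to -0.57 and Gstm1 to -0.55 in this comparison. Between SAHH-het+betaine and SAHH-het, TPM rescaling gave Gsto1 -0.051 and Mgst1 -0.033, and leaving out 1 library gave ranges of -0.70 to 0.19 for Gsta3, -0.44 to 0.52 for Gsta4, -0.27 to 0.23 for Gsto1 and -0.070 to 0.21 for Mgst1. Between SAHH-het+betaine and SAHH-WT, TPM rescaling gave Gstt2 -0.17, Gstp1 -0.091 and Mgst1 -0.35, quantile normalization gave Mgst1 -0.39, and leaving out 1 library gave -0.49 to 0.14 for Gstm1, -0.72 to 0.27 for Gstm2 and -0.072 to 0.21 for Mgst1.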
